A study of Schizosaccharomyces pombe with 24 samples.

Results

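The transcriptome of fission yeast lacking the transcription factor Pho7 was set against that of wild-type (WT) cells while phosphate was plentiful, before any starvation. Every gene was taken whose mean normalized read count was 100 or more in the higher of the pho7Δ and WT groups, which held for 5599 of the 6987 genes listed. Of these, 4862 were protein-coding genes, 701 noncoding RNA (ncRNA) genes, 21 small nucleolar RNA (snoRNA) genes and 13 pseudogenes. The remaining ones were 1 rRNA gene and 1 gene with no type given. The question was which functions differ between the strains in rich medium, across all classes of transcript. The pho7Δ cells (strain AGP83, h- pho7delta::natMX) had the gene replaced by a drug resistance marker, and the WT cells were strain AGP72 (h-). Both strains were grown to log phase in YES medium, which is rich in nutrients including phosphate, and gave 3 poly(A)+ RNA libraries each. The strains of the study carry leu1-32, ura4-D18 and his3-D1, so both groups lacked these functions, together with a mutant ade6 allele that is not given for AGP72 or AGP83. Each group is 1 strain, so any other difference between AGP83 and AGP72 cannot be told apart from the loss of Pho7.

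Pho7 is a zinc-cluster DNA-binding protein that activates the genes of phosphate uptake and scavenging. Its best known targets are pho1, encoding a secreted acid phosphatase, pho84, encoding a phosphate transporter, and tgp1, encoding a transporter of glycerophosphocholine. In phosphate-rich medium these genes are held low by transcription of upstream long noncoding RNAs, and starvation relieves that repression. Fission yeast in rich medium ferments glucose to ethanol, represses genes for other carbon sources and expresses few of the genes for mating, meiosis and nitrogen starvation.

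Pho7 sites in the pho1 and tgp1 promoters share a 12-base motif that reads TCG, then G or C, then A or T, any 2 bases, TT, any base and AA. The motif was searched on both strands in the 500 bases upstream of the annotated gene start. Sites are shown for genes with lower RNA in pho7Δ (pho1, tgp1, SPAC23D3.12, sod22 and pcu4) and with higher RNA (atd1, isp7, grx1 and eno101), to let the same letters be compared in both directions of change. The study lists atd1 as needing Pho7 for induction by starvation, and marks the atd1 stretch shown as a candidate Pho7 site. Each stretch is read 5′ to 3′ along the strand that carries the motif, from the RefSeq ASM294v3 assembly, and capitals mark the motif.
pho1, distal site: ggggaatagTCGCTGCTTGAAacatccgga
pho1, proximal site: tagttttatTCGGAAATTAAAaacaagttt
tgp1: ctttttcctTCGGACATTCAAatcagtaag
SPAC23D3.12: tacattgagTCGGTCTTTGAAaatcaactg
sod22 and pcu4, shared divergent promoter: tgcaatgagTCGCAGCTTGAAaatctctaa
atd1, proximal site: tggctggcaTCGGAGTTTCAAcgtcgttcg
isp7: ttggatatcTCGCACCTTCAAttcgctcta
grx1: gctagtcttTCGGTTATTGAAccgtttact
eno101, distal site: ctcgcttggTCGCTCCTTCAAcgtacccta

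These sites ended 175 and 143 bases before the pho1 start, 180 before tgp1 and 90 before SPAC23D3.12, against 399 before atd1, 122 before isp7 and 130 before grx1. Among promoters of coding genes that were 2-fold or more higher in pho7Δ, 17 of 382 (4.45%) held the motif, as did 19 of 358 promoters (5.31%) of genes that were 2-fold or more lower. Over all 4856 coding promoters of measured genes the motif was found in 141 (2.9%). A match is a description of letters and was not tested as a binding site. The pho84 window held no match to these letters. The study reports a mapped Pho7 site further upstream of pho84, outside this window, with the same motif letters as the SPAC23D3.12 site. The missing match is therefore a limit of the window and does not mean that pho84 lacks a Pho7 site.

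The libraries were alike within each group. Counts per library were worked out from the digits of the group means, which gave 15641070 to 24552072 reads per pho7Δ library and 13138170 to 20917293 per WT library over the genes solved. Pearson's r of log2 values, taken across genes, which are not independent, was 0.9955 to 0.9973 within groups and 0.896 to 0.902 between them. The first principal component, which separated pho7Δ from WT, held 95.3% of the variance. The median coefficient of variation over measured genes was 3.11% among pho7Δ libraries and 4.35% among WT libraries. RNA of pho7 itself gave 807, 831 and 860 normalized reads in pho7Δ, against 3159, 3131 and 3150 in WT, so reads assigned to the locus were reduced 3.78-fold but not absent. The gene next to pho7, SPBC27B12.14, which encodes a predicted mitochondrial assembly protein, had 2224, 2287 and 2423 reads in pho7Δ, against 848, 881 and 874 in WT, and the other genes flanking pho7, SPBC27B12.09c, SPBC27B12.12c and tom7, stayed within 2-fold. RNA of ura4 was listed at 0 in both groups, leu1 averaged 8118 in pho7Δ and 7443 in WT, his3 averaged 245 and 223 in the same order, and ade6 averaged 4363 in pho7Δ and 2615 in WT.

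In all, 477 genes (8.52% of those measured) were at least 2-fold higher in pho7Δ and 679 (12.1%) at least 2-fold lower. The coding genes alone gave 383 (7.88%) past 2-fold higher and 360 (7.4%) lower. Values per library allowed a test with limma for 5494 of the 5599 genes. Of the 477 higher genes, 466 (8.48% of those tested) passed it at an adjusted p of 0.05, 1 did not and 10 were too abundant to be solved per library. Of the 679 lower genes, 667 (12.1% of those tested) passed and 12 were not solved. Of 4758 coding genes tested, 372 (7.82%) rose and 348 (7.31%) fell. These shares are the ones to set beside counts of list members below. In the text, "rose" and "fell" are used only of genes past 2-fold that passed this test. The words "higher" and "lower" give a direction alone and do not say whether a gene was tested or passed. The test passed 84.5% of the 5494 genes tested, most of them within 2-fold, so a p-value alone says little here and the size of each change is given. Reads summed to 18319132 in pho7Δ and 16621902 in WT on the authors' common scale. Scaling both groups to equal totals shifted every log2 ratio down by 0.14 and gave 305 coding genes higher and 460 lower in place of 383 and 360, with a median coding log2 ratio of -0.04 in place of 0.10.

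**Figure D1:**
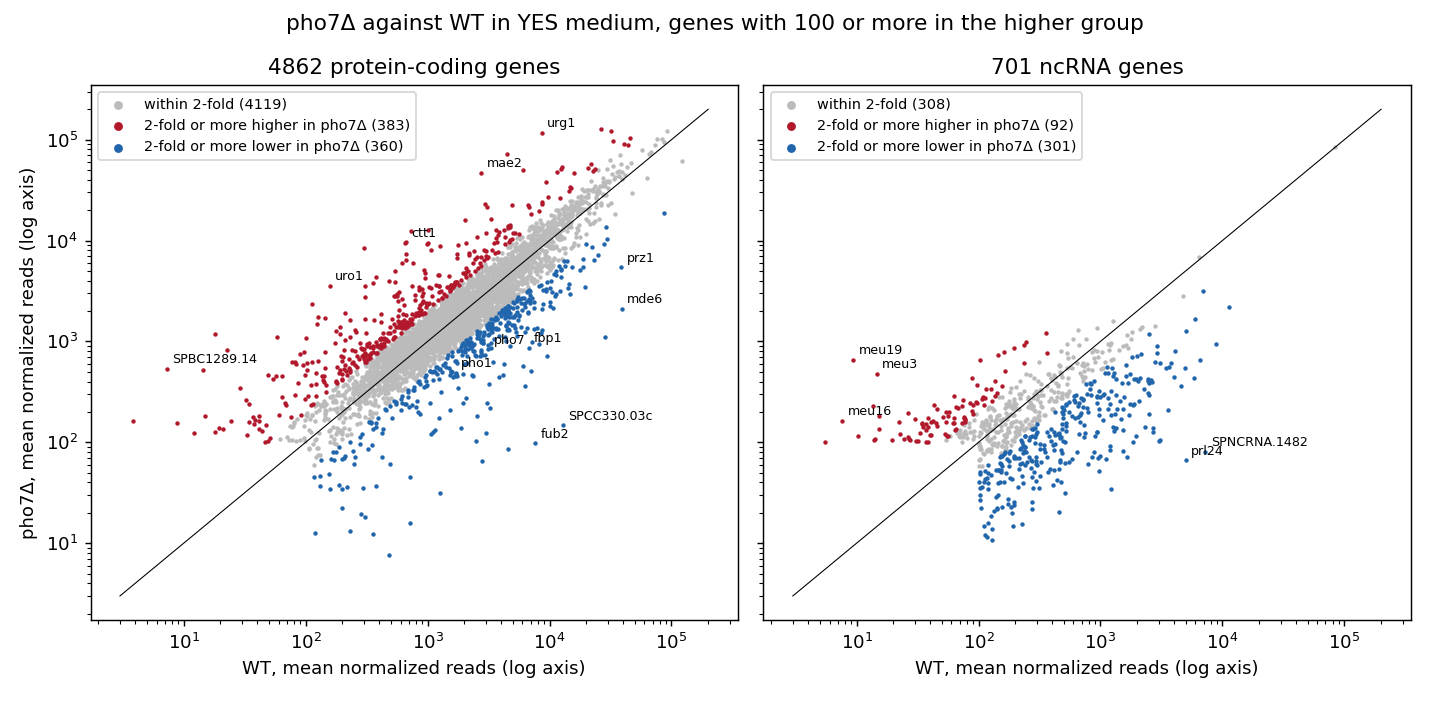
Mean normalized reads of pho7Δ (vertical) against WT (horizontal), both on log axes, for 4862 protein-coding genes (left) and 701 ncRNA genes (right). Points above the line are higher in pho7Δ; the coding genes spread to both sides (383 and 360 past 2-fold), whereas the ncRNA genes lie mostly below it (92 higher and 301 lower).

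Phosphate genes did not move as a group. Of 13 measured genes of phosphate acquisition and storage, 4 rose and 5 fell, with a median log2 ratio of 0.22, against 0.10 over all coding genes. The largest decrease was that of SPAC23D3.12, a plasma membrane phosphate transporter that RefSeq names pho842. It gave 114, 130 and 131 reads in pho7Δ, against 3297, 2897 and 2811 in WT, a 24-fold lower mean. Acid phosphatase pho1 gave 461, 461 and 540 reads in pho7Δ, against 1645, 1602 and 1857 in WT, and was 3.49-fold lower. Transporter gene pho84 was 2.89-fold lower and tgp1 was 2.71-fold lower, again with no overlap between groups. Groups also did not overlap in 3574 genes within 2-fold, against 786 where they did. The related transporter SPCC2H8.02 fell 2.17-fold whereas SPBC1683.01, another transporter of this family, rose to 5213, 5307 and 5610 reads in pho7Δ, against 2646, 2657 and 2522 in WT. The extracellular nucleotidase gene SPAC1039.02, whose product can release phosphate from nucleotides, rose 16.9-fold to 10896, 11439 and 15168 reads in pho7Δ, against 768, 705 and 740 in WT. A second nucleotidase gene of that family, SPAC17G6.03, rose 2.85-fold. The RNA SPNCRNA.1343, annotated beside tgp1, averaged 680 in pho7Δ and 879 in WT.

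The coding genes furthest below WT differed in level, with pho7Δ means of 7.72 for ftm2 to 2117 for mde6. The lowest ratio belonged to SPCC330.03c, a predicted NADPH-hemoprotein reductase, with 149, 161 and 135 reads in pho7Δ, against 12229, 13621 and 12652 in WT, an 86.6-fold difference. Next came fub2, which encodes a predicted proteasome regulator and lies beside pho1. It gave 90.4, 115 and 87.2 reads in pho7Δ, against 7433, 7544 and 7806 in WT. The membrane transporter gene SPBC530.02 fell 43.2-fold, to 63.3, 62.0 and 69.5 reads in pho7Δ, against 2897, 2792 and 2732 in WT. The transcription factor gene atf31 gave 109, 94.0 and 107 reads in pho7Δ, against 2453, 2590 and 2406 in WT, while rdh54, which covers atf31 on the opposite strand, averaged 499 in pho7Δ and 909 in WT. Of the 15 lowest coding genes, SPAC977.18, SPBPB2B2.18 and ftm2 belong to families with close copies near chromosome ends, so their reads may be shared. The upstream windows of ftm2 and SPBPB2B2.18 held the same 30-base stretch tttttttatTCGCTGTTTTAAaattgtttc, shown because a stretch repeated in 2 promoters leaves these sites not independent of each other. SPBPB21E7.04c, a predicted catechol O-methyltransferase, averaged 1113 in pho7Δ and 28237 in WT. Its paralog SPBC119.03 averaged 9217 in pho7Δ and 28107 in WT. Both WT means were too high to be solved per library. The genes SPAPJ695.02 and SPBC28E12.02 fell 45.1-fold and 16.7-fold. Further genes in this set were meu27 (17.4-fold lower), SPAC869.04, a formamidase-like gene (29.1-fold lower), and trp663, a predicted ion channel (17.7-fold lower).

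The coding genes furthest above WT were of several metabolic kinds. The highest ratio was that of SPBC1289.14, a predicted adducin, with 543, 476 and 586 reads in pho7Δ, against 7.52, 8.47 and 5.94 in WT. A second adducin gene, mug14, rose 21.1-fold, to 2416, 2405 and 2283 reads in pho7Δ, against 105, 131 and 101 in WT. SPCC1739.08c, a predicted short chain dehydrogenase, gave 1099, 1158 and 1297 reads in pho7Δ, against 23.8, 20.5 and 9.90 in WT. SPAPB1A11.03, predicted to encode lactate-oxidizing cytochrome b2, gave 148, 157 and 188 reads in pho7Δ, against 2.51, 4.94 and 3.96 in WT, where so few counts leave its 43.2-fold ratio imprecise. SPBPB10D8.02c, a predicted arylsulfatase, rose 35.7-fold rds1, a ferritin-related gene, rose 28.3-fold and SPAC1F8.04c rose 18.8-fold. SPAC343.20, which lies opposite rds1, fell to a ratio of 0.149.

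**Figure D2:**
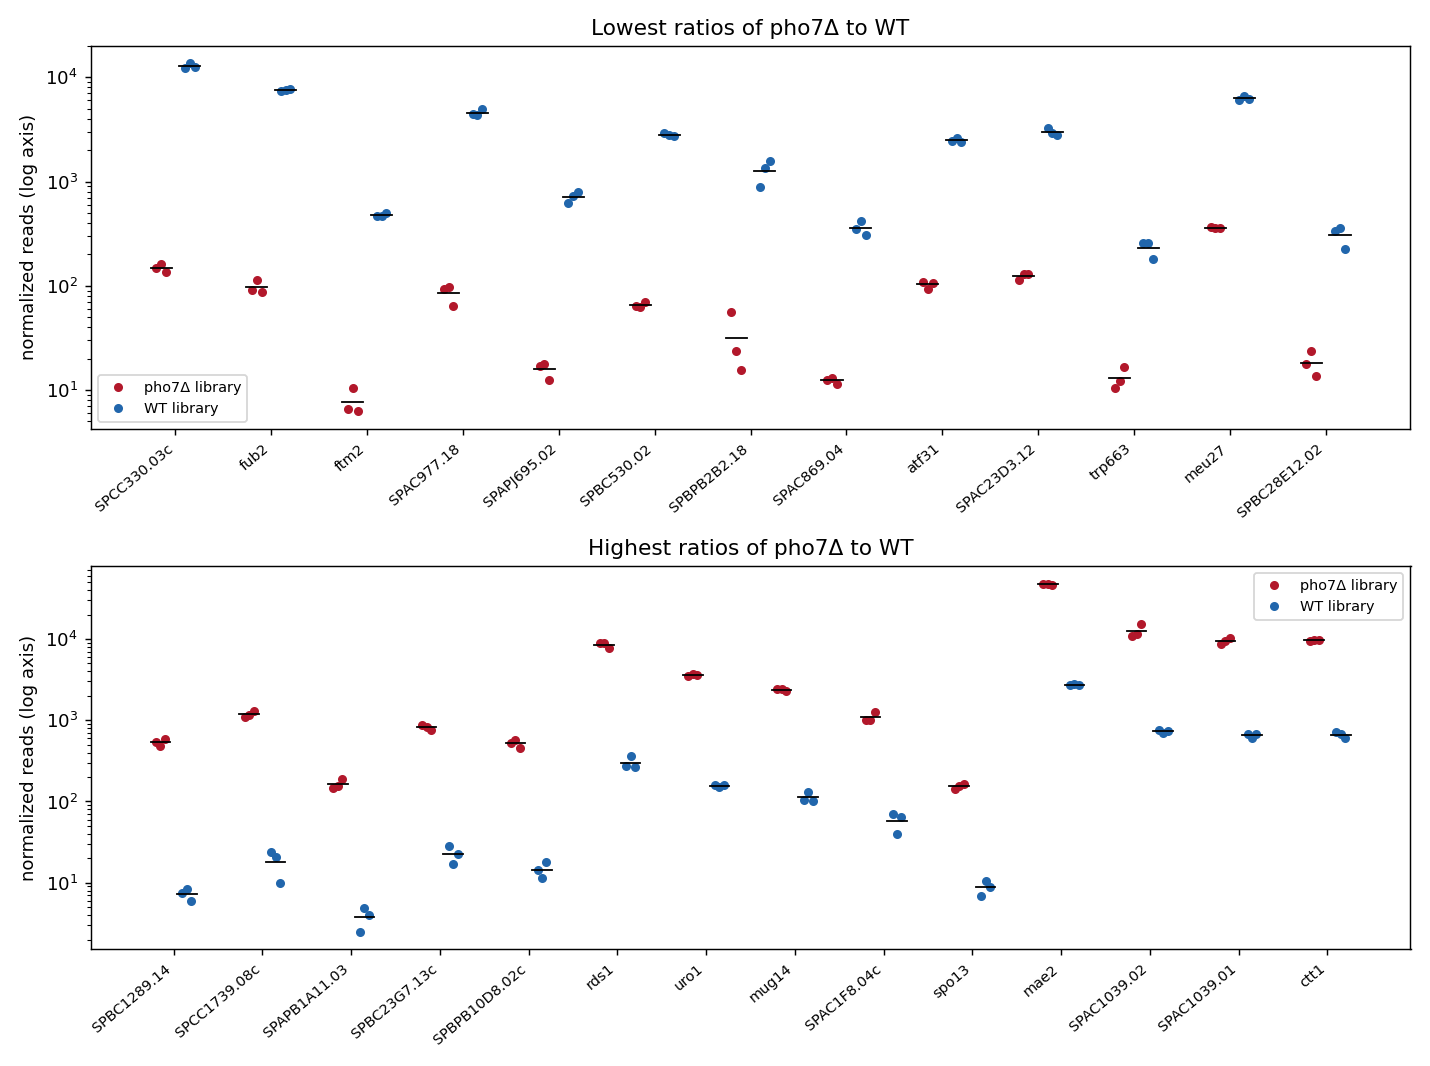
Normalized reads (log axis) in each library for the genes with the lowest (top) and highest (bottom) ratios that could be solved per library. Red points are the 3 pho7Δ libraries, blue points the 3 WT libraries and black bars their means. The genes were chosen by ratio, so separate groups are no added evidence. Of genes within 2-fold, 3574 had groups that did not overlap and 786 had groups that did.

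Sugar uptake and glycolytic RNAs were higher in pho7Δ. Of 6 measured hexose transporter genes 5 rose. The high-affinity glucose transporter gene ght5 gave 6835, 7440 and 7757 reads in pho7Δ, against 657, 818 and 522 in WT. Its relative ght2 rose 7.21-fold, ght3, for a gluconate transporter, rose 6.55-fold and the abundant ght8 rose 2.81-fold. By contrast ght1 averaged 560 in pho7Δ and 609 in WT. Of 17 genes of glycolysis and fermentation, 15 had a ratio above 1 and 8 passed 2-fold. Of those 8, the 3 that could be tested rose. Hexokinase gene hxk2 rose 3.07-fold, to 14024, 14154 and 13929 reads in pho7Δ, against 4661, 4672 and 4374 in WT, whereas hxk1 averaged 11105 in pho7Δ and 8370 in WT. Phosphoglycerate mutase gpm1 rose 2.53-fold. The 5 others past 2-fold higher (tdh1, fba1, eno101, pyk1 and pdc101) were too abundant for values per library, and their means were compared without a test. Glyceraldehyde-phosphate dehydrogenase tdh1 averaged 122702 in pho7Δ and 31693 in WT, whereas its paralog gpd3, which could be tested, averaged 5487 in pho7Δ and 5866 in WT (limma adjusted p = 0.336). Aldolase fba1 averaged 103863 in pho7Δ and 45771 in WT, pyruvate kinase pyk1 90781 and 40654 in the same order, and pyruvate decarboxylase pdc101 127251 and 26538. The minor paralogs went separate ways: enolase eno102 rose 11.8-fold and pyruvate decarboxylase pdc202 fell 2.09-fold. The 17 genes together took 4.58% of normalized reads in pho7Δ and 2.16% in WT.

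Genes for carbon sources other than glucose split. Malic enzyme mae2, which converts malate to pyruvate, gave 47362, 48129 and 45906 reads in pho7Δ, against 2685, 2819 and 2728 in WT, a 17.2-fold increase. The malate transporter gene mae1 rose 2.63-fold. Several glycerol genes rose: gut2, for mitochondrial glycerol phosphate dehydrogenase, 7.41-fold, gld1, for glycerol dehydrogenase, 3.23-fold, dak1, for dihydroxyacetone kinase, 2.70-fold, and gpd1, which makes glycerol phosphate, 2.79-fold. The second dihydroxyacetone kinase gene, dak2, had a ratio of 1.14 (limma adjusted p = 0.0593), and of 6 genes listed for trehalose and glycerol 2 rose. Fructose bisphosphatase fbp1, the gluconeogenic enzyme that glucose represses, fell to 935, 900 and 767 reads in pho7Δ, against 7163, 7858 and 5203 in WT. Aldehyde dehydrogenase genes also differed in direction, as atd1 rose 5.08-fold and atd3 fell 4.05-fold. Of the genes that the study lists as Pho7-dependent under starvation, 18 were found by name, tna1 was not, and 12 reached the minimum level. Of these 12, atd1 among them, 4 fell here and 1, atd1, rose. Ratios were above 1 in 7 of the 12, with a median log2 ratio of 0.45, against 0.10 over all coding genes. Glucose dehydrogenase gcd1 rose 10.5-fold. In the list of 17 measured genes for alternative carbon use, 8 rose and 2 fell. Annotated antisense RNAs cover 100% of fbp1 and gut2 and 78.4% of atd3, and no source used here gives the strand option of the counting.

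**Figure D3:**
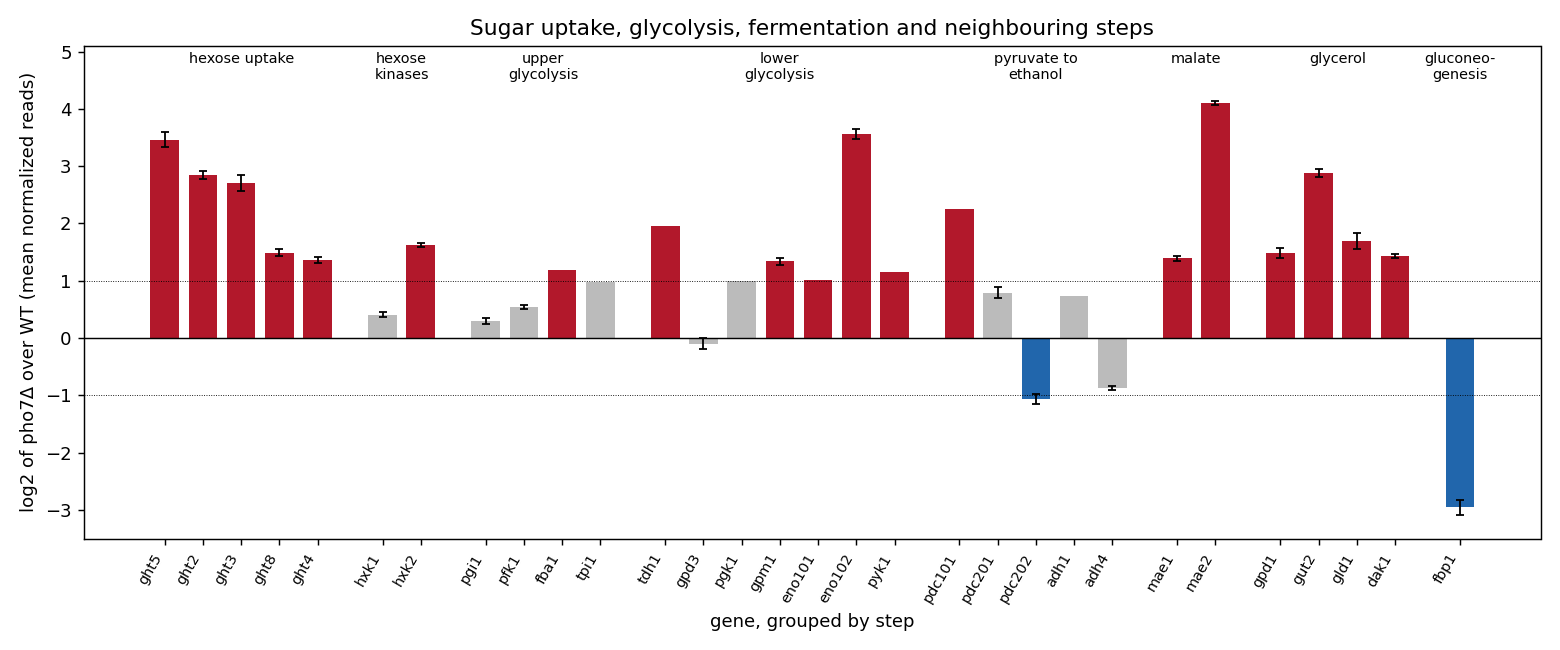
Log2 ratio of pho7Δ to WT means for genes from sugar uptake to ethanol, malate, glycerol and gluconeogenesis. Red bars are 2-fold or more higher in pho7Δ, blue bars 2-fold or more lower, and whiskers the SE from limma where libraries could be solved; mae2 (4.10) and fbp1 (-2.96) mark the ends.

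The mitochondrial side of carbon metabolism changed less. Of 14 citric acid cycle genes, citrate synthase cit1 rose 3.00-fold and malate dehydrogenase mdh1 rose 2.13-fold, and the rest stayed within 2-fold. Of 32 genes of the respiratory chain and ATP synthase, cox8 rose 2.02-fold. The NADH dehydrogenase gene nde1 fell to 4728, 4748 and 4532 reads in pho7Δ, against 11400, 11035 and 10192 in WT. The second such gene, nde2, averaged 5496 in pho7Δ and 18714 in WT. These enzymes pass electrons from NADH to ubiquinone without pumping protons. The respiratory list had a median log2 ratio of 0.16.

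Uracil breakdown genes were higher together. Of 5 measured genes, urg1, urg2, urg3 and uck2 were 7.00-fold to 16.2-fold higher. These 4 genes and the transcription factor gene toe1, which rose 2.43-fold, stood in a row of 5 neighbouring measured coding genes on chromosome I that were all past 2-fold. RNA of urg1 averaged 117315 in pho7Δ and 8645 in WT, the largest gain of any coding gene. In WT the 3 libraries gave 11902, 7074 and 6960 reads for urg1, so the deepest WT library stood above the other two. Uracil phosphoribosyltransferase uck2 gave 6387, 6955 and 5943 reads in pho7Δ, against 838, 602 and 559 in WT. Nucleotide synthesis genes moved the same way but less: of 17 measured genes all 17 had ratios above 1, and 4 rose, namely ura6 (4.39-fold), ura1 (3.38-fold), ade7 (2.86-fold) and gua1 (2.20-fold). The list median was 0.71, against 0.10 for all coding genes.

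Of 23 measured genes for using nitrogen sources 11 rose and 2 fell, with a median log2 ratio of 0.99. The urea transporter gene SPBC23G7.13c gave 867, 831 and 768 reads in pho7Δ, against 28.2, 16.9 and 22.8 in WT. Uricase uro1, which oxidizes urate in purine breakdown, rose 22.8-fold, to 3473, 3680 and 3584 reads in pho7Δ, against 161, 153 and 158 in WT. The oligopeptide transporter gene isp4 rose 12.5-fold, the peptide transporter gene ptr2 9.19-fold and the oxygenase gene isp7 6.97-fold. Glutamine synthetase gln1 rose 4.54-fold. The permease genes agp3 and isp5 fell 3.06-fold and 2.68-fold, and a second predicted urea transporter gene, SPAC869.03c, fell 14.6-fold, so uptake genes of 1 kind did not share a direction. Among all 170 measured genes annotated as transmembrane transporters, 38 rose, 25 fell and 1 more was lower without a test, with a median of 0.10 that became -0.04 when averages were scaled to equal totals. The amino acid permease gene SPAC1039.01, next to the nucleotidase gene SPAC1039.02, rose 14.5-fold, and the proton pump gene pma1 averaged 96326 in pho7Δ and 32893 in WT. The mitochondrial pyrimidine nucleotide carrier rim2 fell 5.79-fold and the sodium antiporter gene sod22, whose promoter site is shown above, fell 7.34-fold. Of 54 amino acid biosynthesis genes 7 rose and none was 2-fold lower, led by arg12 (3.15-fold) and ser3 (2.99-fold).

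Oxidoreductases and detoxification enzymes held many of the largest increases. Of 218 measured genes annotated as oxidoreductases 45 were past 2-fold higher, of which 44 could be tested and rose, and 16 were lower, of which 15 fell. Over all coding genes 7.88% were past 2-fold higher and 7.4% lower. Catalase ctt1, which removes hydrogen peroxide, gave 9504, 9822 and 9577 reads in pho7Δ, against 717, 679 and 602 in WT. The quinone dehydrogenase gene obr1 gave 51695, 52387 and 47294 reads in pho7Δ, against 5759, 5660 and 6814 in WT. Of 21 oxidative stress genes 9 rose and 1 fell. Peroxiredoxin tpx1 rose 2.68-fold, sulfiredoxin srx1 2.72-fold, glutaredoxin grx1 2.98-fold and glutathione transferase gst2 3.99-fold. Its relative gst3 was the gene that fell, 3.50-fold. Formaldehyde dehydrogenase fmd2 fell 10.7-fold, and yhb1, which detoxifies nitric oxide, averaged 10445 in pho7Δ and 29668 in WT. Heat shock genes took less part: of 18 measured, hsp3104, hsp3101 and hsp9 rose and none was 2-fold lower.

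Of 13 measured calcium genes none was 2-fold higher and 4 were lower, with 6 ratios above 1 and 7 below it. Over all coding genes 7.88% were 2-fold or more higher and 7.4% lower. The calcineurin-responsive transcription factor gene prz1 averaged 5466 in pho7Δ and 38711 in WT. The vacuolar calcium pump gene pmc1 gave 2984, 3065 and 2721 reads in pho7Δ, against 11516, 11407 and 10664 in WT. The calmodulin-dependent kinase gene cmk1 fell 3.11-fold and the calcium sensor gene ncs1 2.01-fold. The pump gene pmc1 overlaps cig2, an S phase cyclin gene on the opposite strand, which rose 3.36-fold. Calcineurin itself did not follow, as its catalytic subunit gene ppb1 averaged 2913 in pho7Δ and 1899 in WT. Among 10 copper and zinc genes 3 fell and none was 2-fold higher, with 5 ratios above 1 and 5 below it. The zinc transporter gene zhf1 fell 2.40-fold. The copper transporter gene ctr5 gave 971, 1159 and 1086 reads in pho7Δ, against 3023, 931 and 2786 in WT, so the groups overlapped, and its adjusted p from limma was 0.0441. Iron genes went both ways, since the siderophore transporter gene str1 rose 4.72-fold and isu1, for iron-sulfur cluster assembly, 3.26-fold, whereas the ferric reductase gene frp2 fell 5.93-fold and sib2, for siderophore synthesis, 2.92-fold. The thiamine transporter gene thi9 fell 3.54-fold.

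**Figure D4:**
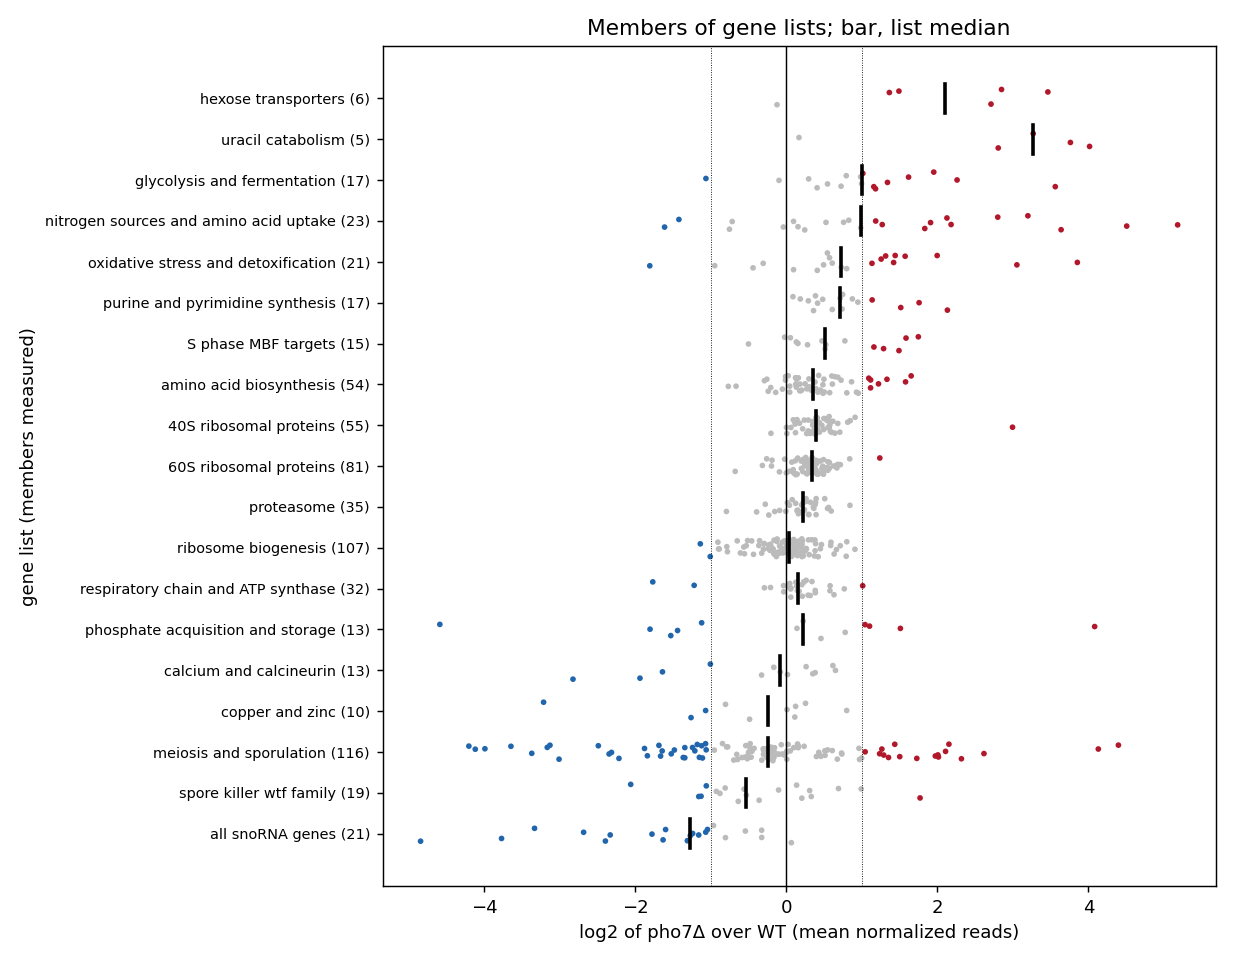
Log2 ratio of pho7Δ to WT means for each measured member of 19 gene lists, with the number of members in brackets and black bars at the list medians. Red and blue points are past 2-fold; hexose transporter, uracil and glycolytic genes lie mostly to the right, snoRNA genes to the left, and meiotic genes on both sides.

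Genes of meiosis and mating moved in both directions. Of 116 measured genes named for meiosis or sporulation 17 rose and 29 fell, with 1 more lower but not tested. That gene was the kelch repeat gene mde6, with means of 2117 in pho7Δ and 38977 in WT. Falling genes included meu27, mug95 (15.9-fold) and mug133 (12.5-fold), and rising genes spo13 (17.5-fold), mug108 (6.14-fold) and spo6 (4.99-fold). Both strains are h-, and mating RNAs of both types were seen. The receptor gene mam2 fell to 379, 388 and 360 reads in pho7Δ, against 3256, 3576 and 2679 in WT, and the P-factor gene map2 to 282, 305 and 238 reads, against 2114, 2083 and 2040. M-factor genes split, as mfm2 rose 2.77-fold and mfm3 fell 3.56-fold. The meiotic regulator mei2 rose 2.56-fold and the mating adaptor ste4 fell 2.67-fold. Of 85 measured transcription factors 8 rose and 8 were lower, 7 of them with a test, pho7 included. Besides atf31 and prz1 the lower ones included cuf2 (9.28-fold), mbx1 (4.92-fold), mei4 (3.17-fold) and prr1 (2.13-fold), and the risers grt1 (4.41-fold), esc1 (2.75-fold) and sre1 (2.19-fold). Of 84 protein kinases 2 rose, ppk1 (9.06-fold) and mcs6 (2.27-fold), and 7 fell, led by the casein kinase gene cki2 (4.16-fold). Over all 4758 coding genes tested 7.82% rose and 7.31% fell. The counts of these families were not tested against those shares.

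Ribosomal protein RNAs were slightly higher as a set. Among 55 genes of the 40S subunit 54 had ratios above 1, with a median log2 ratio of 0.39, and among 81 of the 60S subunit 74 did, with a median of 0.33. Of all 4862 coding genes 2780 had ratios above 1, with a median of 0.10. The 415 coding genes with 10000 reads or more in the higher group had a median of 0.32. That class includes ribosomal protein genes, so it is not a separate set to compare them with. Scaled to equal totals, all these medians would be lower by the same 0.14. Of the ribosomal protein genes only rps1401 and rpl3002 rose past 2-fold. RNA of rps1401 gave 6030, 6139 and 5995 reads in pho7Δ, against 783, 745 and 749 in WT, and aar2 covers it on the opposite strand. Assembly factors did not share the shift, as 107 ribosome biogenesis genes had a median of 0.03 (-0.11 scaled to equal totals), none rose, and bud22 and utp22 fell 2.20-fold and 2.01-fold. All 35 proteasome genes stayed within 2-fold. Of 15 genes of S phase 5 rose, among them cdc22 (3.00-fold) and cdc18 (2.81-fold). Of 12 mitotic genes only slp1 rose, 3.77-fold, where 7.82% of all coding genes tested rose. The cell wall genes gas5 and exg1 rose 5.07-fold and 2.76-fold, and chs1 fell 2.87-fold. Of 19 measured wtf genes, which encode spore killers and share sequence, 4 fell and 1 rose, against 7.31% and 7.82% of coding genes tested. Of 13 listed Tf2 retrotransposon copies only Tf2-11, Tf2-10 and Tf2-2 reached the minimum level, and all 3 rose. The 3 met the minimum by their pho7Δ means, and WT reads over the 13 copies summed to 113.5. That selection favours copies higher in pho7Δ, so their shared direction carries little weight. Reads of these near-identical elements also cannot be placed with certainty, and the largest mean was 135.

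Noncoding RNAs were lower far more often than higher. Of 701 measured ncRNA genes (of 1514 listed) 301 (42.9%) were 2-fold or more lower in pho7Δ and 92 (13.1%) higher. All of these passed the test, as 43% (lower) and 13.1% (higher) of the 700 ncRNA genes tested. Their median log2 ratio was -0.74, against 0.10 for coding genes, and they took 1.58% of normalized reads in pho7Δ and 3.20% in WT. With a minimum of 200 reads the counts were 39 higher and 238 lower. SPNCRNA.1482, an intergenic RNA, gave 79.8, 77.1 and 84.1 reads in pho7Δ, against 6914, 7920 and 6927 in WT, a 90.3-fold difference. The RNA prl24 fell 75.5-fold, and antisense RNAs of isp3, osh3 and num1 fell 29.1-fold to 35.4-fold. The opposite was seen for meu19, with 639, 657 and 683 reads in pho7Δ, against 7.52, 7.77 and 12.9 in WT, for meu3, which rose 32.7-fold, and for the antisense RNA of SPCC569.02c, which rose 18.4-fold. The most abundant ncRNA by reads, prl53, averaged 85100.5 in pho7Δ and 83391 in WT. Among snoRNA genes, which guide rRNA modification and mostly lack a poly(A) tail when mature, 15 of 21 fell (71.4%) and none was 2-fold higher. The U3 copy snu32 had the lowest ratio, with means of 21.4 in pho7Δ and 615 in WT. Lengths of poly(A) tails and RNA quality were not analysed here.

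**Figure D5:**
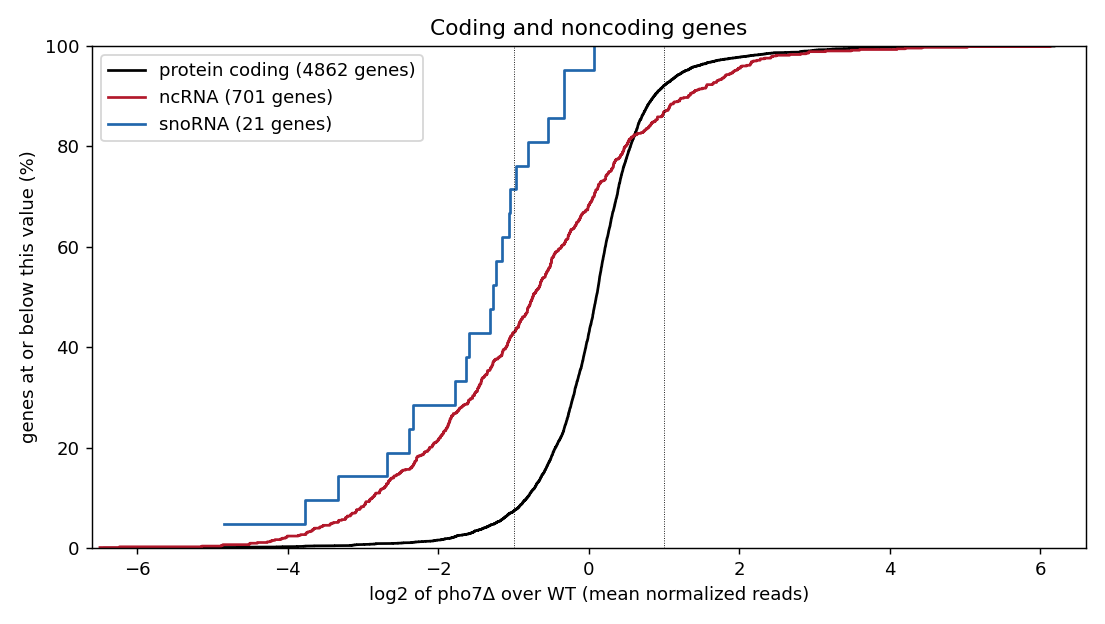
Share of genes (%) at or below each log2 ratio of pho7Δ to WT means, for protein-coding, ncRNA and snoRNA genes with 100 or more reads in the higher group. Dotted lines mark 2-fold; 42.9% of ncRNA genes and 71.4% of snoRNA genes lie at or below the left line, against 7.4% of coding genes.

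Most of these RNAs overlap a coding gene. Of 508 that lie opposite a coding gene 225 (44.3%) were lower and 58 higher, and of 187 others 71 (38%) were lower and 34 higher. The sense partner did not follow in a fixed direction. Opposite the 225 lower antisense RNAs, 23 coding genes (10.2%) were higher and 25 (11.1%) lower, and the partners had a median log2 ratio of 0.09. Opposite the 58 higher ones, 5 (8.62%) were higher and 7 (12.1%) lower. Partners of the 225 antisense RNAs within 2-fold had similar shares, with 24 (10.7%) higher and 23 (10.2%) lower. Over all coding genes the shares were 7.88% and 7.4%. Some pairs were opposed: meu16, 97.8% of which lies opposite mde6, rose to 148, 170 and 174 reads in pho7Δ, against 5.64, 11.3 and 5.94 in WT, where mde6 was the abundant strand. The RNA opposite pof9 rose 17.1-fold while pof9 had a ratio of 0.257, and the RNA opposite gut2 had a ratio of 0.433. Of 928 overlapping pairs of coding genes 21 were opposed past 2-fold, 5 were both lower and 1 was both higher. In 189 pairs 1 member was past 2-fold and in 712 neither was. These counts were not tested against the shares of 7.88% higher and 7.4% lower over all coding genes. Which strand option the counting used is unknown. Of 338 measured coding genes that lie wholly opposite other genes in the RefSeq annotation, 211 reached a mean of 1000 reads.

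Changes were spread over the genome with more near chromosome ends. Of 110 measured coding genes within 100 kb of an end of the RefSeq sequence 21 (19.1%) were higher and 24 (21.8%) lower, against 361 (7.61%) and 334 (7.04%) of 4746 elsewhere. Genes near the ends were not matched for read level to those elsewhere. Some of their families have close copies, so reads may be shared. Chromosomes I, II and III had 7.88%, 7.37% and 8.84% of their coding genes higher and 7.7%, 7.32% and 6.66% lower. The gene after a higher one was itself higher in 42 of 382 cases (11%) and lower in 44 (11.5%). Over all coding genes these shares were 7.88% and 7.4%. In 11 places 3 or more neighbouring measured coding genes were past 2-fold in the same direction. The longest, besides the urg genes, ran from SPAC869.05c, a sulfate transporter gene, through SPAC869.04, SPAC869.03c and yhb1 to pfl9, with ratios of 0.0344 to 0.376. Another held dpe1, sod22, pcu4 and nde2, and a further one held pho84, pho1 and fub2.

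Summed over coding genes, gains in pho7Δ came to 4317409 normalized reads and losses to 2358613, and the 10 largest gains made up 15.6% of the gains. These were urg1, pdc101, tdh1, urg2, pma1, fba1, pyk1, eno101, mae2 and obr1. The 10 largest losses, 13.6% of all losses, included SPAPB24D3.07c, with means of 18853 in pho7Δ and 87216 in WT, and the vacuolar carboxypeptidase gene cpy1, with 61310 and 121153 in the same order. They also held SPAC8C9.04, with means of 7244 in pho7Δ and 24897 in WT. Others of the 10 were sum3, for a translation initiation helicase, with 42097 in pho7Δ and 62408 in WT, and gas2, for a cell wall enzyme, with 29514 in pho7Δ and 47773 in WT, and like cpy1 these were less than 2-fold lower. The share of coding genes past 2-fold higher was 17.6% for those with 100 to 300 reads in the higher group, 9.72% at 300 to 1000, 5.3% at 1000 to 3000, 7.3% at 3000 to 10000 and 13% at 10000 or more. The shares lower, in the same order of level, were 14.6%, 5.21%, 5%, 11.5% and 9.4%.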

How the data were processed

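Poly(A)+ RNA of fission yeast was sequenced from 24 libraries of the series, of which the 3 pho7Δ and 3 WT libraries at 0 h were used, grouped by their labels. Libraries were made with a stranded kit. Per the submitters' processing notes, reads were handled with HISAT2 2.1.0, SAMtools, HTSeq 0.10.0, DESeq2 and the ASM294v2 assembly. No source used here gives the strand option, so overlapping and antisense genes are uncertain, as are near-identical copies.

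The deposited averages are a signal: the authors normalized the reads of each library and averaged them by group. The WT column was the same in 7 of 7 tables. Deposited log2 fold changes with their SE, a Wald statistic (score), p-values, adjusted p-values and a mean over all libraries are the authors' own comparison and were not used.

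The main measure was the ratio of the authors' 2 averages, counted at 2-fold or more with 100 or more in the higher group. Depth and spread are not in the table directly. Each average is a sum of whole counts times 1 step per library, so after seeing the files the counts were solved from its 15 digits, allowing libraries up to 4-fold from the mean (2-fold at 10000 or more). This gave 1 answer for 6963 of 6987 pho7Δ values and 6885 of 6987 WT values, including all under 10000. On simulated counts every one of 6970 and 6884 single answers was right. Libraries are listed by depth and could not be tied to sample numbers. This also departs from the design, which foresaw no test: limma 3.58.1 in R 4.3.3 was run on log2(normalized count + 1) with a trended variance over 6149 solved genes with a mean of 10 or more, adjusted by Benjamini-Hochberg over them. In the simulation it called 194 of 194 changed genes and 7 of the unchanged ones. Spread was simulated by 1 rule for all genes, and changes were 2-fold or 4-fold. Genes with uneven libraries, such as ctr5, were not simulated, so neither the solving nor the test was checked for them. The replicates are biological per the study; p-values measure the spread between these libraries only.

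Members and the 51 gene lists were chosen with earlier results of these data known. Some lists were drawn by symbol or product pattern, and 3 patterns were corrected after seeing which genes they matched. A list was described by its counts and median. Named genes were pho7, strain markers and the 2 neighbours on each side, the 15 highest and 15 lowest coding ratios, the 10 largest gains and losses, the 5 highest and 5 lowest noncoding genes and up to 6 members per list in each direction, plus members showing the range. Genes named for overlap, neighbourhood or a motif site were chosen after their values were seen.

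Strand, overlap and distances came from the RefSeq ASM294v3 annotation, matched by ID for 6638 of 6987 genes, and serve for neighbours and sequence only. Alternatives were other fold limits and minimums, a pseudocount, scalings, removal of genes covered by 50% or more on the opposite strand, leaving out each library, a narrower motif and a longer window.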

Additional observations from a re-analysis of the deposited data

How the results depend on the processing

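The count of higher genes was 1035 at a fold limit of 1.5 and 141 at 4, in place of 477 at 2. The count of lower genes was 1152 and 237 at the same limits, in place of 679, and 341 without genes covered on the opposite strand, 248 of them coding. Minimums of 50 and 200, no minimum, both scalings and the pseudocount kept both counts within 1.5 times. Under limma over the libraries 466 genes were higher and 667 lower, and leaving out 1 library at a time gave 457 to 472 higher and 654 to 676 lower. With a narrower motif (TCG, G or C, A, any base, TTT, any base, AA) the match was in 0.838% of promoters of lower genes and 0.524% of those of higher genes (3 and 2 promoters), against 0.371% of all. A window of 1000 bases, chosen after seeing the data, gave 7.54% for lower genes, 7.07% for higher genes and 5.23% for all. Medians of 8 of 55 lists and classes changed sign when averages were scaled to equal totals and 5 when the median coding ratio was set to 1. Each of these medians was near 0; ribosome biogenesis went to -0.11 and -0.07. The pseudocount turned none and removal of covered genes 2, copper and zinc (0.01) and adhesins (0.02). No paired analysis was possible because the libraries behind the averages carry no replicate number. Abundant RNAs such as urg1 and 8 of 17 glycolytic genes lack values per library in 1 or both groups, so their differences rest on means alone, and low WT counts limit the largest folds.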
